A study of Mus musculus with 13 samples.

Results

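Cytosolic ribosomal protein genes were followed in RNAseq of C2C12 cells. They were the protein-coding mouse genes whose symbols begin with Rpl or Rps and a number, with the acidic stalk genes Rplp0 to Rplp2 and Rpsa, and without S6 kinases and pseudogenes. The rule took 83 of the 55642 genes listed, 51 of the large and 32 of the small subunit. It left out genes such as Fau, Rack1, Rpl36al and Rps3a1, which also encode or are fused to ribosomal proteins. C2C12 is a single clonal line of mouse myoblasts, so all 13 libraries share 1 genotype and differ in siRNA and medium. Transfection was with nontargeting siRNAs in control KD and with siRNAs against YBX3 in YBX3 KD, and cells were harvested 48 h after transfection. Proliferating myoblasts in fetal bovine serum (0 day) gave 4 libraries of each siRNA, and differentiating myoblasts after 24 h in horse serum (1 day) gave 2 control KD and 3 YBX3 KD libraries. Libraries carry a replicate letter, A to D at 0 day, C and D in control KD at 1 day, and B to D in YBX3 KD at 1 day.

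Each ribosome contains 1 copy of nearly every ribosomal protein, and the acidic stalk proteins are its best known exception. Their mRNAs are among the most abundant of a growing cell and commonly begin with a run of pyrimidines, the terminal oligopyrimidine tract, through which growth signals set their translation together. In muscle, making ribosomes is a step in growth, and myoblasts change their ribosome production as they leave the cell cycle.

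Total counts ranged from 33451547 to 71811371 per library, and 16848 genes had enough counts for a test. Levels are in CPM, a gene's counts set against the library total after TMM scaling. Log2 fold changes are given with their standard error (SE), and each adjusted p is that of the quasi-likelihood test of edgeR over all genes tested, unless another tool is named. Ybx3 itself was at 316, 311, 334 and 265 CPM in control KD at 0 day, at 46.6, 40.3, 42.9 and 37.9 CPM in YBX3 KD at 0 day, at 347 and 294 CPM in control KD at 1 day, and at 47.0, 71.5 and 28.7 CPM in YBX3 KD at 1 day. The ranges of the 2 siRNAs were far apart, as the labels state, with a log2 fold change over both days of -2.81 (SE 0.17, edgeR adjusted p = 5.26e-06). Among myoblast genes, Cdh15 was at 115 to 158 CPM and Myf5 at 31.3 to 62.1 CPM in control KD, whereas Myod1 reached no more than 1.80 CPM and Pax7 no more than 0.146 CPM. Markers of leukocytes, endothelium, epithelium and adipocytes (Ptprc, Pecam1, Epcam and Adipoq) did not exceed 0.0970 CPM in control KD. Myogenin (Myog), the early differentiation factor, was at 0.239 CPM on average in control KD at 1 day and 1.39 CPM in YBX3 KD at 1 day, with no change that passed the test. Further markers chosen for myoblasts, their differentiation and neurons (Des, Vcam1, Mymk, Mymx, Ckm, Myh3, Acta1, Tnnt1 and Tubb3) are not reported here.

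Of the 83 genes, 79 had enough counts for a test, 48 of the large and 31 of the small subunit. The other 4 were paralogs: Rpl10l, Rpl39l and Rps4l had 0 counts in all libraries, and Rpl3l, the striated muscle form of Rpl3, had at most 4 counts in a library. All values below concern the 79, which passed a filter on low counts.

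Sequences at the annotated start sites are shown because they carry the pyrimidine tract, which many members share and the rule did not use. Windows run from 18 bases before the start to 12 bases from it, on the gene's strand in GRCm38.p6 as RefSeq gives them, with the longest run of C and T near the start in capitals as far as it lies in the window.
Rpl4, chr9:64173369-64173398: TCTTTCCTTTTCCTgtgggagcagccgggt
Rpl7a, chr2:26910789-26910818: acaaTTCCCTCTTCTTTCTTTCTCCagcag
Rps6, chr4:86857356-86857385: gttaagcggaagtcgggCCTCTTTTTCgtg
Rpl35, chr2:39005120-39005149: agtcggccccgCCCTTTCCTCTTTCTCTCg
Rpl10a, chr17:28328453-28328482: gtggtggcgCCCCCCCagcggccgcaaact
In these windows the run spanned the start in Rpl7a, Rps6 and Rpl35 and lay before it in Rpl4. A run of at least 8 C or T within 25 bases of the start was found for 32 of the 59 tested members with an entry, or 54.2%, compared with 22.8% of the 10840 tested genes with one. The share was 58.3% of 36 large subunit members and 47.8% of 23 small subunit members. Rpl10a, with a run of 7, was among those without. Only the gene's strand was searched, and a run more than 25 bases from the annotated start would be missed. Runs wholly before the start, as in Rpl4, were counted too, so the share is not that of mRNAs that begin with the tract.

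The siRNAs can also be set against the member mRNAs. A small RNA can lower an mRNA that matches its seed, bases 2 to 8 of the guide strand, in the 3′ untranslated region. The guide strand of siRNA 08 to mouse YBX3 is shown with its seed in capitals, chosen after the values were seen because Rpl4 matches it, and the matching bases are in capitals in each mRNA.
siRNA 08 guide: aUACUUGCguggguuguuu
Rpl4, chr9:64085743-64085772: aaattccagagaGCAAGTAgagaccgcata
Rpl5, chr5:108056049-108056078: gtgggattaaggGCAAGTAttaccatgcct
Rps20, chr4:3834298-3834327: cttaaccactgaGCAAGTActgaagcatta
Positions are those of GRCm39 with GENCODE vM39. In Rpl4 the match starts 29 bases past the stop codon, on the plus strand, and 41 of its 43 coding transcripts hold it. In Rpl5, which holds a further match, it starts 199 bases past the stop codon and 7 of 12 coding transcripts have a match, and in Rps20, on the minus strand, the figures are 186 bases and 3 of 24. The annotated 3′ untranslated regions searched are 2609 bases long in Rpl5 and 3167 in Rps20, beside 625 in Rpl4. Whether the mRNAs in C2C12 cells hold these matches was not tested. Rpl4, Rpl5 and Rps20 were the 3 members with a match to siRNA 08 in the 3′ untranslated region, 3.80% of 79, compared with 6.84% of 12933 tested genes. Rpl7a, the other member that fell, matched none of siRNAs 05, 06 and 08 there. The listed strands of siRNA 07 are not complementary, so its seed is uncertain and is not used. Nontargeting siRNAs 01, 02, 03 and 04 matched 1, 12, 14 and 10 members, or 1.27%, 15.2%, 17.7% and 12.7%, beside 0.65%, 24.9%, 29.5% and 31.8% of tested genes, with Rpl4 among those of siRNA 02 and Rpl5, Rpl7a and Rps20 among those of siRNA 03. The sources used here do not say which of the listed siRNAs were in the cells sequenced.

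Levels between genes were compared per kilobase of coding sequence, because some annotated transcripts are far longer than the mRNA that C2C12 cells are likely to hold. Reads also fall outside the coding sequence, so this measure favours genes whose coding sequence is short, Rpl41 most of all. In control KD at 0 day the highest level per coding kilobase was that of Rpl41, the shortest ribosomal protein, at 9840.4 ± 923 CPM (SD, n = 4). Next came the stalk protein mRNA Rplp1 at 2321 ± 192, followed by Rpl8 at 1962 ± 131, Rplp0, the stalk base, at 1948 ± 159 and Rpl23a at 1924 ± 148 CPM per kilobase (SD, n = 4). The last 3 differed from each other by less than 1 SD. At the low end were Rpl29 at 139.7 ± 12.8, the paralogs Rpl7l1 at 144 ± 31.1 and Rpl22l1 at 195 ± 35.7, Rps2 at 269 ± 211 and Rpl26 at 274 ± 30.2 CPM per kilobase. Rpl29 and Rpl7l1 could not be told apart, nor could Rps2 and Rpl26.

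**Figure D1:**
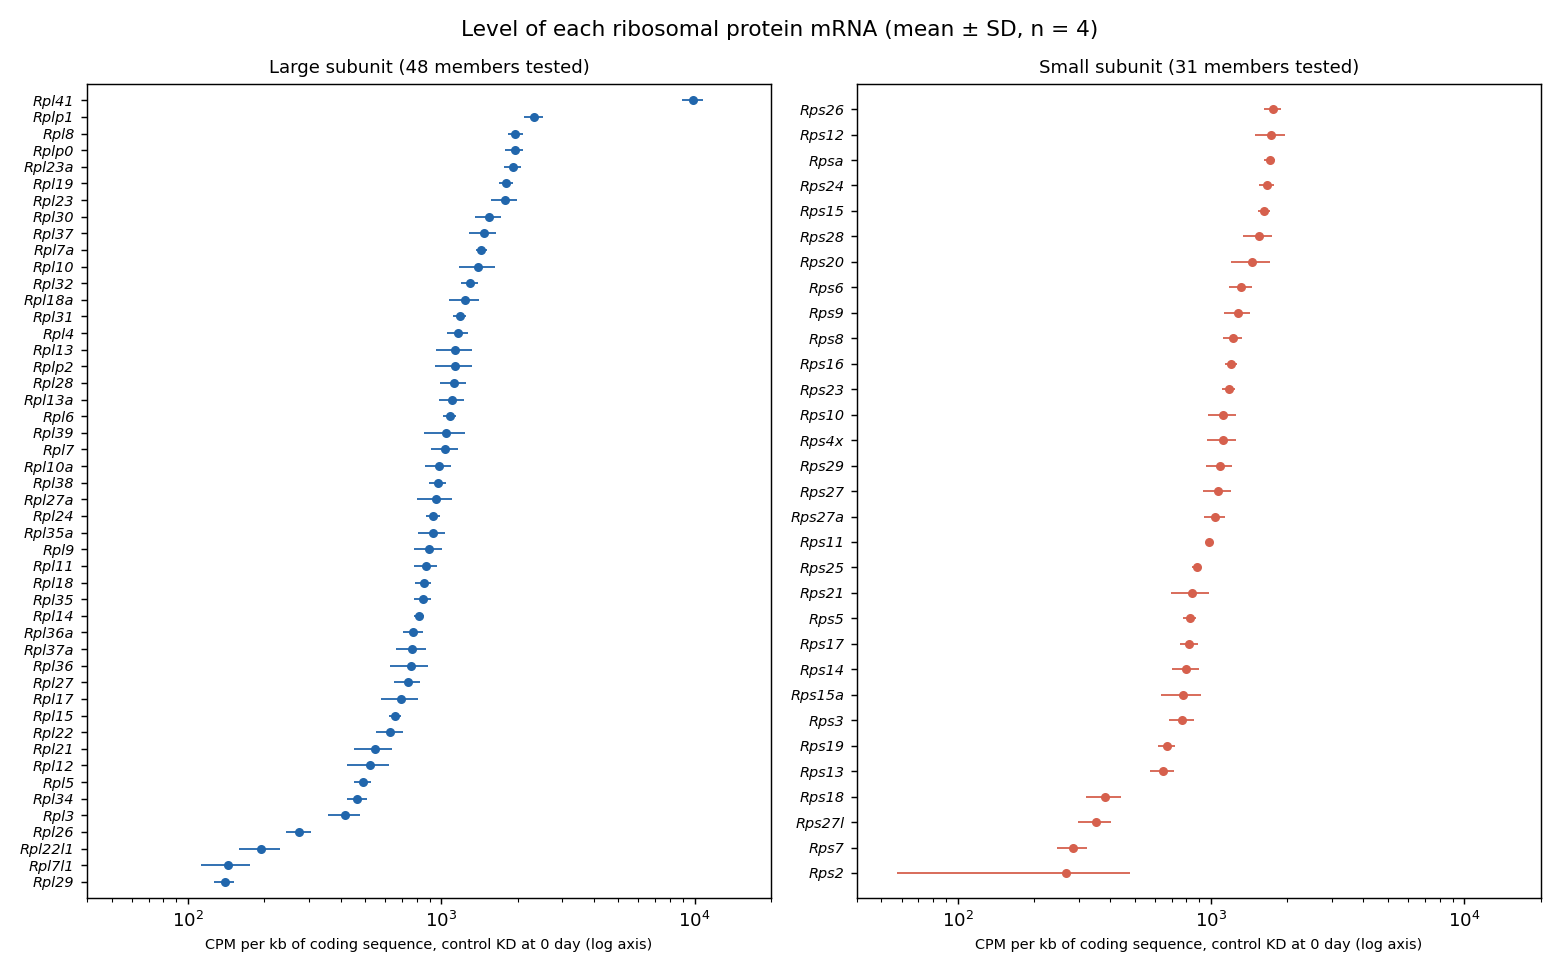
Level of each tested member in control KD at 0 day, in CPM per kilobase of coding sequence on a log axis, for the large (left) and small (right) subunit. Points are means and bars the SD of 4 libraries. Rpl41 stands apart at 9840.4 by this measure, which favours short coding sequences, and Rps2 has the widest bar.

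Rps2, a small subunit protein at the mRNA entry channel, was at 87.4, 473, 300.0 and 88.0 CPM in the 4 control KD libraries at 0 day. No other tested member had an SD as large for its mean. Of the counts shared between Rps2 and its pseudogenes, 84.2% were on pseudogene rows, nearly all on Rps2-ps10. The share was 80.6% for Rps18, 71.5% for Rps7, 60.2% for Rpl3 and 37.5% for Rpl15. Counts of these genes are uncertain, since the estimate splits near-identical sequences. Only pseudogenes that carry the symbol of their gene were counted, so the shares may be too low, also for members not named here. For Rps2 the standard error of the log2 fold change over both days was 0.43, and 0.12 after the pseudogene counts were summed with the gene.

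The member mRNAs together made up 3.92 to 4.46% of counts in control KD and 3.28 to 4.00% in YBX3 KD at 0 day, and 3.92 and 4.43% in control KD and 3.83 to 4.69% in YBX3 KD at 1 day. The groups did overlap at 0 day, where control KD replicate A held 3.92% and YBX3 KD replicate B 4.00%. Large subunit mRNA summed to 27214 ± 1821 CPM under control KD at 0 day and to 22686 ± 1753 CPM under YBX3 KD (SD, n = 4 each). Small subunit mRNA summed to 15699 ± 1190 and 13457 ± 1405 CPM (SD, n = 4 each). At 1 day the large subunit was at 26377 ± 2694 (SD, n = 2) and 25939 ± 2838 CPM (SD, n = 3), and the small at 15272 ± 1805 (SD, n = 2) and 15494 ± 1995 CPM (SD, n = 3). The ratio of large to small subunit counts was between 1.63 and 1.76 in all 13 libraries. Set against the control KD library of the same letter, 6 of 6 YBX3 KD libraries had the lower ratio, with differences from -0.0648 to -0.00325. At 0 day it went from 1.75 to 1.70 in A, 1.69 to 1.63 in B, 1.76 to 1.70 in C and 1.740 to 1.737 in D, and at 1 day from 1.71 to 1.68 in C and 1.75 to 1.71 in D. Without Rpl4 it was lower in 5 of 6 pairs, and without Rpl4 and Rpl7a, a choice made after their values were seen, in 2 of 6. These ratios used gene rows alone, so the split of reads with pseudogenes can move them. The share on pseudogene rows was 84.2% for Rps2, 80.6% for Rps18, 71.5% for Rps7 and 60.2% for Rpl3. Ratios with pseudogene counts added were not computed. Fewer mRNA molecules of a gene and more of all others cannot be told apart in such counts.

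**Figure D2:**
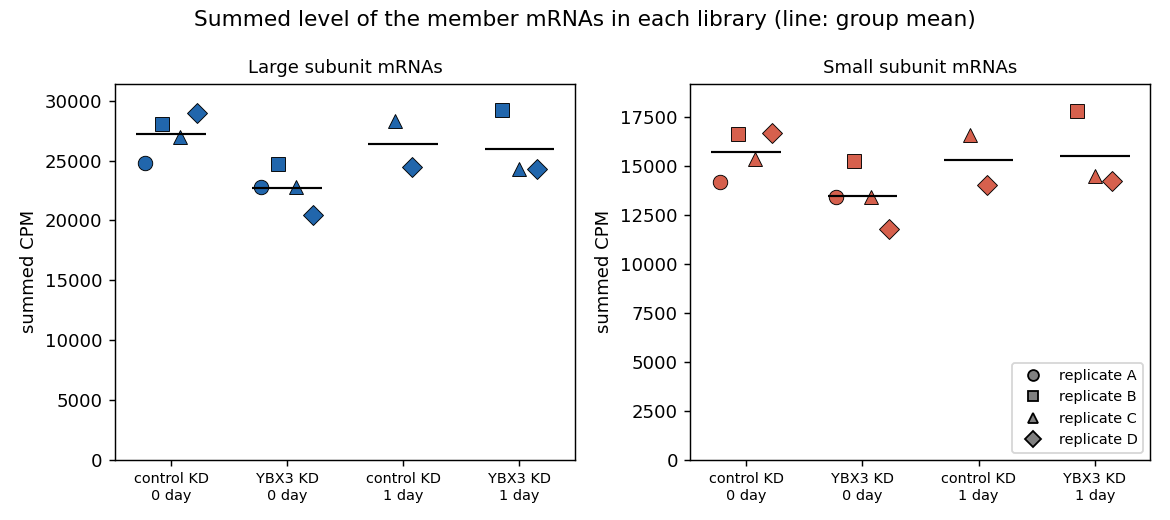
Summed CPM of the large (left) and small (right) subunit mRNAs in each library, by group; marker shapes are replicate letters and lines group means. In both panels the lowest value is that of YBX3 KD replicate D at 0 day, and YBX3 KD replicate B is the highest of its group at each day.

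Over both days, 2 large subunit mRNAs, Rpl4 and Rpl7a, fell upon YBX3 KD, and no small subunit mRNA passed the test. Of the 79 members, 77 had a negative log2 fold change, with a median of -0.14 (large -0.14, small -0.14) beside 0.00 for all genes tested, and scaling to the members themselves, which centres them by construction, put 43 higher and 36 lower. That setting was chosen after seeing the data and bears on single members relative to the set, not on the set. With relative log expression factors, and with TMM without ribosomal proteins, 77 of 79 were lower and the median was -0.14. Among all genes, 49.9% were lower. The 2 with an adjusted p under 0.05 compare with 2.34% of all genes, 1.04% lower. Rpl4 was by edgeR the 1 member that also passed the study's thresholds, an adjusted p under 0.001 and a fold change over 1.3, which 0.113% of all genes did. By DESeq2, the tool for which the study set them, 2 members did over both days (Rpl4 and Rpl7a, beside 1.12% of all genes), 3 at 0 day (also Rpl5, beside 0.629%) and 1 at 1 day (Rpl4, beside 0.148%). In Rpl4, Rpl7a and Rpl23a, 3 members, the highest of 7 YBX3 KD values lay under the lowest of 6 control KD values, against 1.08% of all genes. By DESeq2, Rpl23a passed 0.05 as well, making 3 beside 7.00% of all genes. The letters pair the libraries, and with the letter as a block 5 members passed, Rpl4, Rpl7a, Rpl8, Rpl22l1 and Rpl23a, beside 9.78% of all genes.

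Rpl4 (ENSMUSG00000032399, chr9:64080618-64086351, plus strand, GRCm39) encodes a protein whose loop lines the constriction of the exit tunnel for the nascent chain. It was at 1355, 1417, 1437 and 1669 CPM in control KD at 0 day, and at 861, 911, 886 and 796 CPM in YBX3 KD. At 1 day it was at 1544 and 1394 CPM in control KD and at 1069, 1003 and 979.5 CPM in YBX3 KD. No library of one siRNA reached into the range of the other on either day, and the level was lower in 6 of 6 pairs of libraries with the same letter. Members that did not pass by edgeR, such as Rpl10a, Rpl14, Rpl15 and Rpl18, were also lower in 6 of 6 pairs. The share of all genes lower in 6 of 6 was not counted. Over the libraries of both days, in which letters recur, the means of Rpl4 were 1470 ± 117 (SD, n = 6) and 929 ± 93.1 CPM (SD, n = 7). The log2 fold change was -0.68 (SE 0.07, edgeR adjusted p = 3.68e-04). With the letter as a block it was -0.69 with an adjusted p of 0.00136, past 0.05 and short of the study's 0.001. With 1 library left out at a time, it stayed under 0.001 without replicate D of control KD at either day or replicate B or D of YBX3 KD at 1 day, and reached up to 0.00250 without each of the other 9. Scaled to the members it was -0.53 (SE 0.07, edgeR adjusted p = 0.00345), so Rpl4 was low also within the set. Its share of large subunit counts was 5.05 to 5.75% in control KD and 3.66 to 4.13% in YBX3 KD. The 884 tested genes that match the siRNA 08 seed in the 3′ untranslated region, Rpl4 among them, had a median log2 fold change of -0.06, and 6.33% passed lower. Of the 12049 without a match, whose median was 0.00, 0.921% did. For siRNAs 05 and 06, the genes with a match passed lower in 1.5% and 4.10%, beside 1.28% and 1.15% of those without. The part of the seed match in the level of Rpl4 was not tested. Of the other members with a match in the annotation, Rpl5 was at -0.20 over both days and at -0.41 at 0 day (SE 0.09, edgeR adjusted p = 0.0793). Rps20 was at -0.15 over both days and at -0.28 at 0 day (SE 0.12, edgeR adjusted p = 0.426).

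Rpl7a (ENSMUSG00000062647, chr2:26800744-26803335, plus strand, GRCm39), a large subunit protein that binds rRNA, was at 1154, 1072, 1193 and 1191 CPM in control KD and at 784, 868, 884 and 722 CPM in YBX3 KD at 0 day. At 1 day it was at 1278 and 1031 CPM in control KD and at 951, 907 and 822 CPM in YBX3 KD. The 2 siRNAs again did not overlap on either day, and 6 of 6 letter pairs were lower, as also in members that did not pass. Means over the libraries of both days were 1153 ± 89.6 (SD, n = 6) and 848 ± 78.0 CPM (SD, n = 7), and the log2 fold change was -0.45 (SE 0.07, edgeR adjusted p = 0.00824). Scaled to the members it was -0.31 with an adjusted p of 0.0626, and without all libraries of letter B its adjusted p was 0.0637.

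**Figure D3:**
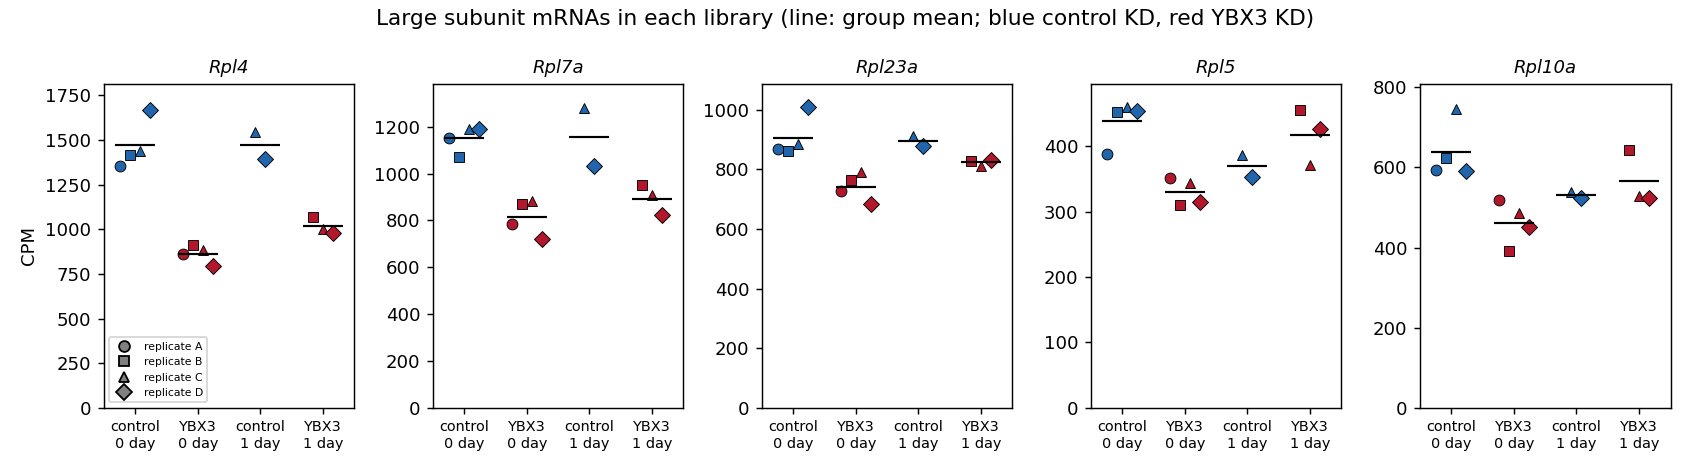
CPM of Rpl4, Rpl7a, Rpl23a, Rpl5 and Rpl10a in each library by group, with group means as lines, control KD in blue and YBX3 KD in red, and marker shapes for replicate letters. YBX3 KD libraries lie below control KD libraries on both days in Rpl4, Rpl7a and Rpl23a, and in Rpl5 and Rpl10a at 0 day but not at 1 day.

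Among proteins around the tunnel exit, where chaperones and targeting factors dock, Rpl23a, the docking site of the signal recognition particle, came closest to the threshold. It was at 869, 861, 885 and 1009 CPM in control KD and 728, 764, 791 and 684 CPM in YBX3 KD at 0 day, then at 913 and 878 CPM against 828, 812 and 829.8 CPM at 1 day. These ranges were apart, yet the step between them was small, with a log2 fold change of -0.23 (SE 0.06, edgeR adjusted p = 0.0692). With the letter as a block its adjusted p was 0.0456. Rpl35, Rpl26, Rpl31 and Rpl19 had log2 fold changes of -0.16, -0.19, -0.14 and -0.09, with adjusted p from 0.334 to 0.551. Beside Rpl4 in the tunnel wall, Rpl17 was at -0.08 and Rpl39 at -0.06, with adjusted p of 0.756 and 0.819. Both lay above the median of the set.

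For the 5S RNP, which carries the 5S rRNA into the large subunit and restrains Mdm2 when free, Rpl5 was at -0.20 (SE 0.10, edgeR adjusted p = 0.400) and Rpl11 at -0.13 (SE 0.10, edgeR adjusted p = 0.584) over both days. Stalk proteins, which recruit translation factors, lay at -0.07 in Rplp0, -0.09 in Rplp1, -0.12 in Rplp2 and -0.18 in Rpl12, and none of the 4 passed. Rpl10a, of the L1 stalk that guides the leaving tRNA, was at -0.26 (SE 0.11, edgeR adjusted p = 0.289). Near the peptidyl transferase centre, Rpl10, which joins last in the cytoplasm, was at 783 to 1099 CPM in control KD and 743 to 978 CPM in YBX3 KD. The ranges overlapped, and the log2 fold change was -0.12 (SE 0.09, edgeR adjusted p = 0.545), or 0.02 when scaled to the members. Rpl3 in the same region was at -0.16 (adjusted p = 0.454), with most of its counts on pseudogene rows.

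In the small subunit, no protein of the mRNA channel or decoding site passed the test over both days. Rpsa was at 1404 to 1588 CPM in control KD and 1151 to 1598 CPM in YBX3 KD, a log2 fold change of -0.15 (SE 0.08, edgeR adjusted p = 0.386). Rps26, at the mRNA exit, was at -0.18, Rps3 at -0.17, Rps9 and Rps28 at -0.16, Rps23, next to the decoding site, at -0.13 and Rps14 at -0.10, with adjusted p from 0.291 to 0.652. The S6 kinase substrate Rps6 lay at -0.16 (adjusted p = 0.427) and Rps27a, made as a fusion to ubiquitin, at -0.12 (adjusted p = 0.683). Rps27l, a paralog of Rps27 induced by p53, and Rps2 were the 2 members with a positive value, 0.19 (SE 0.18, edgeR adjusted p = 0.665) and 0.05 (adjusted p = 0.969). Summed with its pseudogenes, however, Rps2 was at -0.18 (SE 0.12), and in that setting 78 of 79 members were lower. In Rps27l YBX3 KD was higher in all 6 letter pairs, a count not made for all genes. Rpl22l1, the paralog of Rpl22, was at 61.0 to 90.5 CPM in control KD and 42.7 to 76.0 CPM in YBX3 KD, a log2 fold change of -0.39 (SE 0.14, edgeR adjusted p = 0.172), and passed with the letter as a block (adjusted p = 0.00863). Rpl7l1, a paralog of Rpl7 with a role in making the large subunit, was at -0.10 (adjusted p = 0.802). While 0 small subunit members passed by edgeR, and 4 of 31 had an unadjusted p under 0.05 beside 15.6% of all genes, limma-voom and DESeq2 also passed 0. DESeq2 with the letter as a block passed 18 members, 7 of the small subunit, beside 17.5% of all genes.

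At 0 day, the same 2 members passed, Rpl4 and Rpl7a, beside 0.427% of all genes, and 77 of 79 were lower, with a median of -0.23 in each subunit, where scaling to the members centres them at 44 higher and 35 lower. The median was -0.24 with relative log expression factors and with TMM without ribosomal proteins. It was -0.14 without all libraries of letter D, and -0.18 without YBX3 KD replicate D at 0 day alone, so its size leaned on that letter. Among all genes 50.8% were lower. Rpl4 was at -0.77 (SE 0.08, edgeR adjusted p = 0.00173) and Rpl7a at -0.50 (SE 0.09, edgeR adjusted p = 0.0491). At an unadjusted p under 0.05 there were 36 members, beside 11.0% of all genes. The next by p were Rpl5, at 389, 453, 460.5 and 455 CPM in control KD and 352, 311, 344 and 315 CPM in YBX3 KD, and Rpl10a, at 594, 622.5, 746 and 590 CPM in control KD and 519, 392, 487 and 451 CPM in YBX3 KD. Neither overlapped at this day, and Rpl5 had a log2 fold change of -0.41 ± 0.09 (SE) with an edgeR adjusted p of 0.0793. Rpl10a had one of -0.46 ± 0.11 (SE) with an edgeR adjusted p of 0.117. Summed with its pseudogenes, which held 9.79% of the counts shared with them, it was at -0.37 ± 0.08 (SE) with an edgeR adjusted p of 0.0857. With the letter as a block 3 members passed, Rpl4, Rpl7a and Rpl5 (adjusted p = 0.0499), beside 2.37% of all genes. DESeq2 passed 8, all of the large subunit, beside 3.00% of all genes. With the letter as a block it passed 23, 16 of the large and 7 of the small subunit, beside 7.91%. Rpl7a lost its place when any of the 8 libraries of 0 day, or YBX3 KD replicate B or C at 1 day, was left out, and without all libraries of letter B 0 members passed, Rpl4 having an adjusted p of 0.0683. Rpl22l1 was at -0.45 at this day, with an adjusted p of 0.365.

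At 1 day no member passed, beside 0.0712% of all genes. Here 48 of 79 were higher, with a median of 0.04 beside 0.02 for all genes, of which 52.1% were higher, whereas 34 were higher with the letter as a block and 39 when centred by scaling to the members. Rpl4 was at -0.53 (SE 0.10, edgeR adjusted p = 0.208) and Rpl7a at -0.37 (SE 0.12, edgeR adjusted p = 0.494), and these were the 2 members with an unadjusted p under 0.05, beside 7.79% of all genes. By DESeq2 1 member passed, Rpl4, beside 0.902% of all genes, and by limma-voom 0. With the letter as a block DESeq2 passed 5 members beside 13.9% of all genes. Next by p were Rps27 at 0.27, Rps18 at 0.30 and Rpl5 at 0.17, with adjusted p from 0.695 to 0.748. Summed with pseudogenes, Rps18 was at 0.15, Rps27 at 0.28 and Rpl5 at 0.18. The median of the set was -0.09 without control KD replicate D, -0.06 without YBX3 KD replicate B and 0.14 without control KD replicate C, so its sign rested on single libraries.

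**Figure D4:**
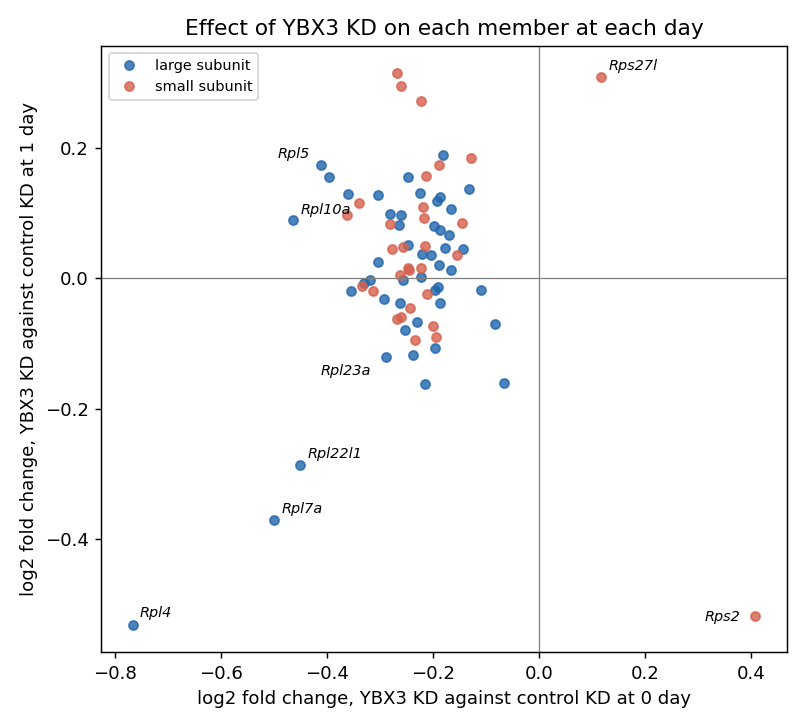
Log2 fold change of YBX3 KD against control KD at 0 day (x axis) and at 1 day (y axis) for the 79 tested members, blue for the large and red for the small subunit. Nearly all lie left of 0 on the x axis and on both sides of 0 on the y axis, on the scale of all genes; scaling to the members, which centres them, would put 44 to the right. Rpl4 (-0.77 and -0.53) lies at the lower left, and Rps2 and Rps27l are the points right of 0. Summed with its pseudogenes, which the figure does not show, Rps2 was at -0.12 at 0 day.

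The difference between the days was tested for each gene as an interaction, and no member passed, beside 0% of all genes. Its estimate was positive in 77 of 79 members, with a median of 0.26, against 49.9% of all genes, and in 39 when centred by scaling to the members. At an unadjusted p under 0.05 there were 9, beside 2.64% of all genes, and limma-voom and DESeq2 also passed 0. Rpl5 led with 0.58 (SE 0.14, adjusted p above 0.99) and was followed by Rpl10a at 0.55, Rpl26 at 0.55, Rps27 at 0.50 and Rpl32 at 0.38. Summed with pseudogenes, Rpl10a was at 0.35 and Rpl5 at 0.60. For Rpl5, control KD stood at 387 and 354 CPM and YBX3 KD at 455, 371 and 427 CPM at 1 day, so that the order of the means was the reverse of that at 0 day. In Rpl10a, control KD stood at 537 and 525 CPM and YBX3 KD at 643, 530 and 523 CPM. For Rpl4 the interaction was 0.24 (SE 0.13) and for Rpl7a 0.13 (SE 0.15). Without control KD replicate D at 1 day the median was 0.14, without replicate C it was 0.39, and without all libraries of letter D it was 0.10.

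From 0 day to 1 day, no member passed in control KD or in YBX3 KD by edgeR, beside 0% of all genes in each, nor by limma-voom or DESeq2. In control KD 19 of 79 were higher, with a median of -0.04, against 49.0% of all genes, and Rpl5 at -0.25 was the 1 member with an unadjusted p under 0.05, beside 1.44% of all genes. Centred by scaling to the members, 41 were higher. The members' median step was 0.12 in the pair of letter C and -0.26 in that of letter D, and without letter D the fitted median was 0.11. Leaving out control KD at 1 day gave 0.08 without replicate D and -0.18 without replicate C. In YBX3 KD 78 of 79 were higher, with a median of 0.21, against 49.3% of all genes, and 34 when centred by scaling to the members. At an unadjusted p under 0.05 there were 16, beside 4.28% of all genes, led by Rpl5 at 0.34, Rps28 at 0.33, Rpl32 at 0.27, Rpl26 at 0.37 and Rps27 at 0.32. Medians of the letter pairs were 0.25 in B, 0.12 in C and 0.27 in D. Without YBX3 KD replicate B at 1 day the median was 0.10.

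The members moved together from library to library. Relative to its group, the median member was between -0.16 and 0.21 on the log2 scale. The median of all genes stayed within 0.012 of 0, where TMM scaling tends to hold it. In control KD at 1 day, with 2 libraries, the deviations are equal and opposite by construction. The large and small subunit medians had the same sign in each library. The highest were both YBX3 KD libraries of letter B, at 0.16 and 0.21, a letter with no control KD library at 1 day, and the lowest was YBX3 KD replicate D at 0 day. Between libraries of the same letter, YBX3 KD minus control KD gave a median of -0.08 in A, -0.16 in B, -0.20 in C and -0.50 in D at 0 day, and of -0.18 in C and 0.02 in D at 1 day. Letter D thus held both the largest difference and the only pair above 0. Rpl4 lay at -0.65, -0.64, -0.70, -1.07, -0.62 and -0.51 in the same order, and was among the 3 lowest members in each pair. What sets the letters apart was not tested.

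**Figure D5:**
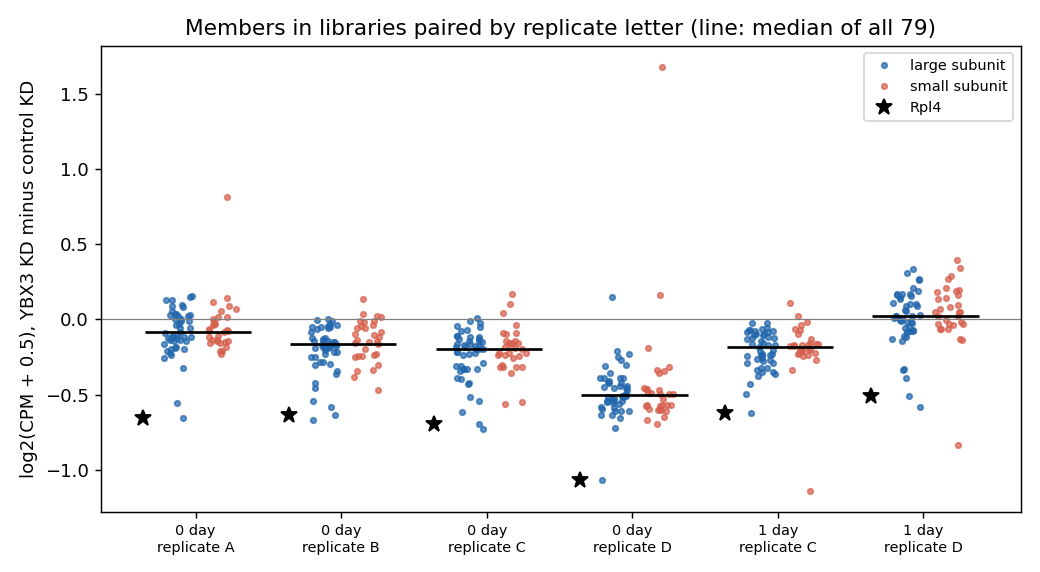
Difference of log2(CPM + 0.5) between YBX3 KD and control KD for each member in the 6 pairs of libraries with the same letter, blue for the large and red for the small subunit, with the median of the 79 members as a line and Rpl4 repeated as a star. Medians run from -0.50 in letter D at 0 day to 0.02 in letter D at 1 day, while Rpl4 is between -1.07 and -0.51.

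Genes outside the set were counted for comparison, on the scale of all genes. Of 19 other mRNAs with a terminal oligopyrimidine tract, with the elongation factors Eef1a1 and Eef2 and also Fau and Rack1 among them, 19 were lower over both days with a median of -0.17, and at 0 day 19 were lower with a median of -0.24. At 1 day 11 were higher, with a median of 0.01. Among all genes 49.9% were lower over both days and 50.8% at 0 day, and 52.1% were higher at 1 day. None of the 19 passed by edgeR, and 2, 6 and 0 had an unadjusted p under 0.05, beside 15.6%, 11.0% and 7.79% of all genes over both days, at 0 day and at 1 day. Of 93 ribosome biogenesis factors 0 passed, with medians of -0.07 over both days, 0.00 at 0 day and -0.17 at 1 day, and 3, 2 and 0 had an unadjusted p under 0.05. At 1 day 85 of the 93 were lower, while 31 of the 79 members were, beside 47.8% of all genes. The median SE of the 93 at 1 day was 0.34, larger than the size of their median. Other tools, and fits that leave out libraries, were not run on these lists.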

How the data were processed

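The authors mapped reads of stranded mRNA libraries with Salmon to GRCm39 and Gencode M30 and deposited estimated counts per gene, whole numbers without normalization. How transcript estimates were summed by gene and rounded is not given in the sources used here. Salmon divides reads between near-identical sequences by estimation, which can move counts between a member and its pseudogenes. Identifiers were joined to GENCODE vM39 (54969 of 55642 matched). Members and lists were chosen with earlier results of these data known.

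Tests used edgeR 4.0.16 under R 4.3.3 (filterByExpr on the 4 groups, TMM, glmQLFit and glmQLFTest with default settings, Benjamini-Hochberg over 16848 genes), and sequences were read in Python 3.11.15. YBX3 KD was compared over both days with day as a term, and within days by contrasts of a fit with a coefficient per group over all 13 libraries. Standard errors were the log2 fold change divided by the root of F. Coding length replaced transcript length for levels after the annotated lengths were seen. Labels give each library a letter in the description and a number in the title, which disagree at 1 day. Residuals from group means correlated above 0.1 in 16 of 16 pairs of the same letter (0.207 to 0.843), in 13 of 46 of different letters and in 10 of 16 of the same number, so letters were taken to pair the libraries. Labels call them biological replicates without naming separate cultures, and p-values measure the spread between these samples. No 2 libraries of a group were duplicates (chi-square per degree of freedom at least 18.96).

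Named were Rpl4, Rpl10, Rpl10a, Ybx3, members that passed or the 5 with the smallest p, the 5 highest and lowest levels, role groups and paralogs. Others were named after their values were seen. A further list of ribosomal proteins outside the symbol rule is not reported here. Alternatives were DESeq2 1.42.0 (with Benjamini-Hochberg adjustment, where the authors used independent hypothesis weighting), limma-voom (limma 3.58.1), relative log expression factors, TMM without ribosomal proteins, no filter, at least 10 counts in every library, a block for the letter or for the title number, a fit of just the libraries compared, no day term, summing with pseudogenes, and leaving out libraries or letter D. Scaling to the members, DESeq2 with a letter block, and a fit lacking letter B were added after seeing the data. The fit was tested on simulated counts with 200 changed genes.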

Additional observations from a re-analysis of the deposited data

Results flagged for a closer look

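Of 158 groups of 4 libraries, 79 members in each siRNA at 0 day, 5 held a library far from the other 3, all in control KD, by Dixon's gap test at the 95% level. Chance gives about 1 in 20 such groups. In replicate D, Rpl7l1 was at 72.1 CPM, with the others at 117 to 119 CPM. Rps14 in the same library was at 432 CPM, with the others at 339 to 345 CPM, and Rpl23a was at 1009 CPM, with the others at 861 to 885 CPM. In replicate A, Rpl5 was at 389 CPM, with the others at 453 to 460.5 CPM, and Rps16 was at 485 CPM, with the others at 539 to 550.04 CPM. In Rpl7l1 replicate D was low also in YBX3 KD at 0 day (79.9 CPM) and at 1 day (71.5 CPM).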

How the results depend on the processing

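Rpl4 kept a negative log2 fold change and an adjusted p under 0.05 over both days in all 27 alternatives, from -0.63 to -0.72 except when scaled to the members. Members passed over both days numbered 5 with the letter as a replicate block, 18 by DESeq2 with that block, 1 scaled to the members and 1 without letter B. At 0 day they numbered 8 by DESeq2, 23 by DESeq2 with the block, 0 without letter B, and 1 with relative log expression factors, no filter, the title number as a replicate block, only the libraries compared, or scaling to the members. At 1 day they numbered 1 by DESeq2, beside 0.902% of all genes, and 5 by DESeq2 with the block, beside 13.9%. Each library left out in turn gave 2 over both days, 1 to 2 at 0 day and 0 at 1 day. Over both days, all genes passing numbered 394 as reported, 1647 with the block, 1179 by DESeq2, 2951 by DESeq2 with the block, 230 scaled to the members, 180 with no filter, 38 without letter B and 2155 without letter D. At 0 day they numbered 72, and 399, 506, 1332, 109, 37, 6 and 948 in that order. Scaling to the members, which centres the set and moved the median of all genes from 0.00 to 0.15, put Rpl10 at 0.0238 on the log2 scale over both days. Interaction and day steps passed 0 members in every alternative. The cause of these shifts was not tested. The 2 control KD libraries at 1 day limit that day. Sharing of reads with pseudogenes limits at least Rps2, Rps18, Rps7, Rpl3 and Rpl10a, since pseudogenes under other names were not counted.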
